A study of Homo sapiens with 2 samples.

Results

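Expression of 42 interferon-stimulated genes and interferon regulatory factors (IRFs) was compared between the parental line HCT-8, which the labels call a cancer line of the human colon, and its vincristine-resistant counterpart HCT-8/V. Below, parental cells are HCT-8 and resistant cells are HCT-8/V. The 42 genes were chosen by symbol, and all of them were found among the 20046 named genes of an Illumina bead array, on 62 of its 47323 probes. Each line was measured on 1 array, and the labels number both as replicate 1. Per the labels, both were kept in serum-containing RPMI, and the treatment text of both, which is the same, names pcDNA3.1-Twist, a plasmid with the transcription factor gene Twist, transferred for 48 h. It does not say whether either line was meant as an untreated control, so resistance and the plasmid could not be told apart if only 1 line carried it. The labels do not say whether HCT-8/V is a single clone, and neither culture is labelled as free of the plasmid. A single array per line allows no statistical test, so differences are described by size and have no replicate check.

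Interferons are secreted proteins that cells release on sensing viral nucleic acid. Type I and type III interferons act through JAK kinases to assemble ISGF3, a complex whose DNA-binding subunit is IRF9 and which binds the interferon-stimulated response element (ISRE) in the promoters of antiviral genes. Interferon gamma acts mainly through STAT dimers that bind the gamma-activated sequence (GAS), and IRF1 is one of the first genes it induces. Many interferon-stimulated genes also have a basal level in epithelial tumour cells without added interferon.

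The promoter stretches of 10 members on which the results turn are shown first, since they hold letters that match the patterns bound by ISGF3, IRFs and STAT dimers. They were taken from RefSeq promoters of build GRCh38.p14, in the 250 bases before the annotated start, and chosen with the expression values known. Capitals mark matches to the ISRE-type pattern, GAAA and GAAA with any 2 bases between them (on the other strand TTTC and TTTC), and to the GAS-type pattern, TTC and GAA with any 3 bases between them, which reads the same on both strands. The patterns can overlap, as they do in BST2.
IRF1: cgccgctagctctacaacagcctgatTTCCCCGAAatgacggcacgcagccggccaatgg
IRF9: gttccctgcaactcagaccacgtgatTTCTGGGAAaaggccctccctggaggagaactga
IFI6: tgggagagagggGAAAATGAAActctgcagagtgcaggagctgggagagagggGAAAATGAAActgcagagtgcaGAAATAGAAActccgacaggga
ISG20: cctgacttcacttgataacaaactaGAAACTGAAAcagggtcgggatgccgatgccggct
BST2: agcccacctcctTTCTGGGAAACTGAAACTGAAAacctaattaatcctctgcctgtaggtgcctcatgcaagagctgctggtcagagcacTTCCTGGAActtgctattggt
IFIT3: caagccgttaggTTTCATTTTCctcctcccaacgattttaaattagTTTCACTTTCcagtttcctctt
IFIT5: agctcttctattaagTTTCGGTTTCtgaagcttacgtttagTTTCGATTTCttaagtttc
IFIT1: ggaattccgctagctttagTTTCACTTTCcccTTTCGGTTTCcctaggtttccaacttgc
ISG15: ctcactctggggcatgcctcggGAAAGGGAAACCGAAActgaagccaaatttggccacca
OAS3: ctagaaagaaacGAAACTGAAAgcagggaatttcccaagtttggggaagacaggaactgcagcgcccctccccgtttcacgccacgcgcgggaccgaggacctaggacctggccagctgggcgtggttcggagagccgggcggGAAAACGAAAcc
In GRCh38.p14, the stretches lie as follows. The GAS-type stretches are IRF1 at chr5:132490864-132490923 on the minus strand and IRF9 at chr14:24161176-24161235 on the plus strand. Those of genes that read higher in HCT-8/V with an ISRE-type match are IFI6 at chr1:27672264-27672360 on the minus strand, ISG20 at chr15:88638922-88638981 on the plus strand and BST2 at chr19:17405668-17405778 on the minus strand. The dim IFIT genes are IFIT3 at chr10:89327829-89327896 on the plus strand and IFIT5 at chr10:89414508-89414567 on the plus strand. The genes that were nearly equal or lower in HCT-8/V are IFIT1 at chr10:89392488-89392547 on the plus strand, ISG15 at chr1:1013362-1013421 on the plus strand and OAS3 at chr12:112938319-112938473 on the plus strand. IRF1 and IRF9 had a GAS-type match and no ISRE-type match in this window. IFI6 had 3 ISRE-type matches, and BST2 had 2 of each kind. A match is a description of letters, not a shown binding site.

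The table gave 1 background-subtracted intensity per probe and array, in arbitrary units. The brightest probe stood for each gene. A value counted as expressed above the array's median over all probes, the floor (12.44 on the parental and 12.42 on the resistant array), and as bright above the 75th percentile (81.3 on both). Values under the floor were raised to it before log2, so a fold with 1 line under the floor is a lower bound. Of the 42 genes, 20 were bright on at least 1 array, 14 were expressed but dim, and 8 were under the floor on both. All 8 of these, OAS2, IFIH1, MX1, GBP1, SAMHD1, CMPK2, TRIM22 and IFI44, lay between -16.0 and 7.35 in both lines on their brightest probes and have no fold.

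These are bulk cultures, in which fewer cells of a kind and less RNA per cell cannot be told apart. Among the 20 bright members, more read higher in HCT-8/V than lower. Of the 20, 14 were higher and 6 lower, where 53.5% of all 8009 bright genes were higher. IRF7 and ADAR, among the 14, and XAF1, among the 6, had probes that went opposite ways. A broader list of further interferon-induced genes, described below, did not share this direction, with 7 of its 18 bright genes higher. The median log2 difference, HCT-8/V minus HCT-8 here and throughout, was 0.23 for the bright members and 0.03 for all bright genes. ISG20 and PARP9 were bright in HCT-8/V alone, so they entered this class through the line where they were high. Of the 18 members bright on both arrays, 12 were higher and 6 lower, against 53.0% higher among all 7355 such genes, with a median of 0.15 against 0.03. Most of these differences were small: 16 of the 20 were under 1.5-fold, 3 were at least 1.5-fold higher (IRF1, ISG20 and IFI6, against 6.83% of all bright genes) and 1 was at least 1.5-fold lower (OAS3, against 5.13%). IRF1 alone passed 2-fold upward, against 0.862% of bright genes, and no bright member passed it downward, against 0.737%.

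The 14 dim members were split evenly, with 7 higher and 7 lower, where 52.0% of all 5754 dim genes were higher. IFIT2, IFIT3, IFIT5 and IFI44L were at least 2-fold higher (4 of 14, against 8.93% of dim genes), and USP18 and DTX3L were at least 2-fold lower (2 of 14, against 7.99%). IFIT3, IFIT5 and IFI44L exceeded the floor in resistant cells alone, and USP18 and DTX3L in parental cells alone. These 5 counted as expressed only through the line where they were high, so their number says nothing about the members as a group. Of the 7 dim members above the floor on both arrays, 4 were higher and 3 lower, and IFIT2 alone passed 2-fold. Dim and bright together, 21 of 34 expressed members were higher, against 52.8% of all expressed genes. Past 2-fold, 5 of the 34 were higher and 2 lower, against 4.24% and 3.77% of 13763 expressed genes. Of the 34, 7 were above the floor in 1 line only, 3 of them in HCT-8/V and 4 in HCT-8. Over the 27 above the floor on both arrays, 18 were higher and 9 lower, against 53.2% higher among all such genes, with a median of 0.30 against 0.03.

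**Figure D1:**
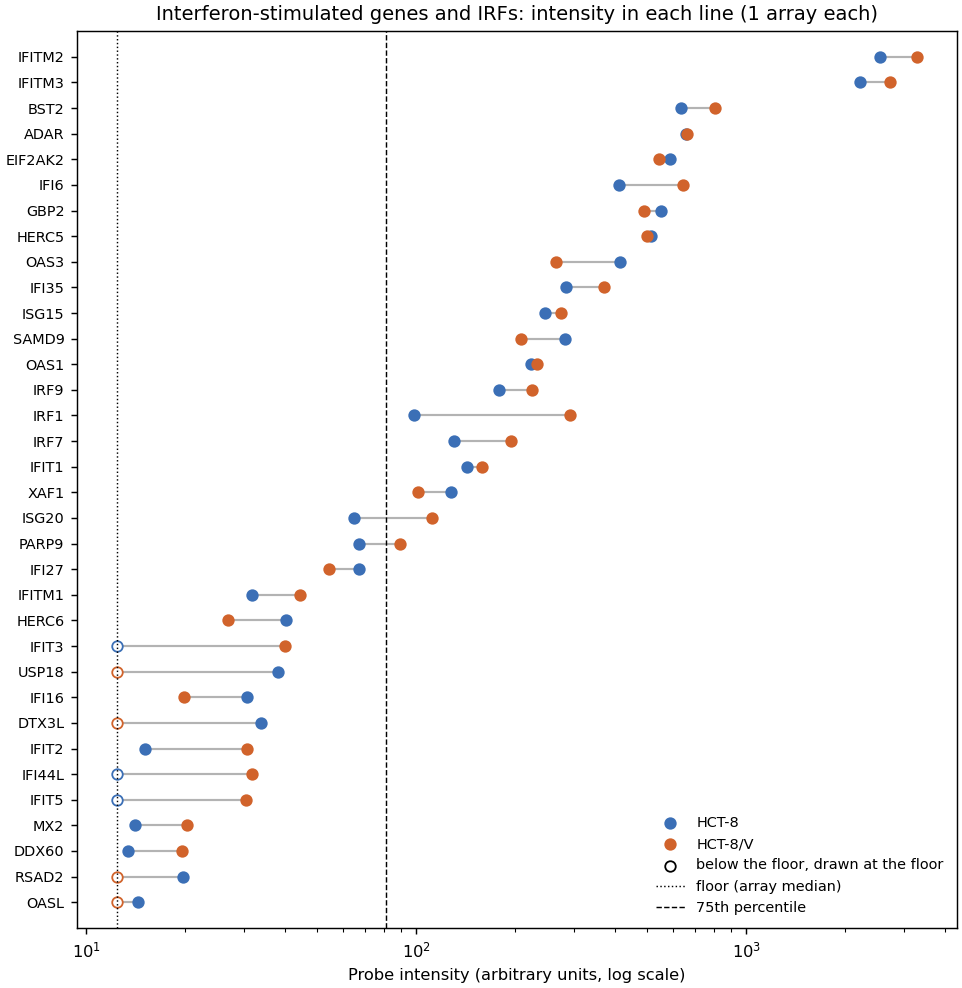
Intensity of the 34 expressed members in HCT-8 (blue) and HCT-8/V (orange) on a log axis, 1 array each; open circles are values under the floor, drawn at it (dotted line), and the dashed line is the 75th percentile. The longest gap right of the dashed line is that of IRF1, from 98.4 to 292.

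The 3 IRFs were all bright and all read higher in HCT-8/V. IRF1, the transcription factor of the interferon gamma response that also restrains proliferation, read 98.4 in parental and 292 in resistant cells. This 2.97-fold difference (log2 1.57) ranked 7th from the highest among 8009 bright genes, and it rests on a single probe. IRF7, which amplifies the production of type I interferon, read 131 and 194 on its brightest probe (log2 0.57). Its other probe above the floor went the opposite way, at 48.9 and 35.8, and the mean over its 3 probes was a log2 difference of 0.04, so no direction can be given for IRF7. IRF9 read 179 and 225, a 1.26-fold difference (log2 0.33) on its only probe.

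All 4 IFIT genes, whose products bind viral RNA and block its translation, were higher in HCT-8/V, but 3 of them were dim. IFIT1, which recognises RNA lacking the cap methylation of host transcripts, was the bright member and read nearly the same in both lines, at 143 in parental and 158 in resistant cells (1.11-fold). IFIT3, its partner in a complex, read 9.11 and 40.1, at least 3.22-fold higher, and a second probe at 16.0 and 23.1 was 1.44-fold higher. IFIT2 read 15.1 and 30.8, which is 2.04-fold. With the differences of all expressed genes centred at 0, IFIT2 was under 2-fold (log2 0.99). IFIT5 read -0.689 and 30.4, at least 2.45-fold higher. The 4 genes lie in 1 cluster on chromosome 10, with 1 other coding gene between IFIT3 and IFIT1.

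The IFITM proteins sit in cell membranes and hinder the entry of enveloped viruses, and tetherin, encoded by BST2, holds budding virions at the cell surface. All 4 were modestly higher in HCT-8/V, and 3 were bright. IFITM2 read 2551 in parental and 3285 in resistant cells, a 1.29-fold difference. IFITM3 read 2217 and 2731, or 1.23-fold. BST2 read 633 and 804, or 1.27-fold. The differences of these 3 bright genes lay within a narrow range of log2 0.30 to 0.37. IFITM1 was dim, at 31.8 and 44.6 (log2 0.49). The IFITM genes are close paralogs that neighbour each other on chromosome 11. Whether their probes can each bind the others' transcripts was not tested, so their values may not be independent.

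Genes of the ISG15 system, a ubiquitin-like tag and the enzymes that add or remove it, did not move together. ISG15 itself read 246 in parental and 275 in resistant cells (1.12-fold). HERC5, the main human ligase for ISG15, was nearly equal at 514 and 499. HERC6, its neighbour on chromosome 4 and the main ISG15 ligase in mouse, was dim at 40.3 and 26.9 (log2 -0.59). USP18, the protease that removes ISG15 and a brake on type I interferon signalling, read 38.3 in parental and 3.62 in resistant cells, at least 3.08-fold lower. Both HERC6 and USP18 rest on 1 dim probe each.

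**Figure D2:**
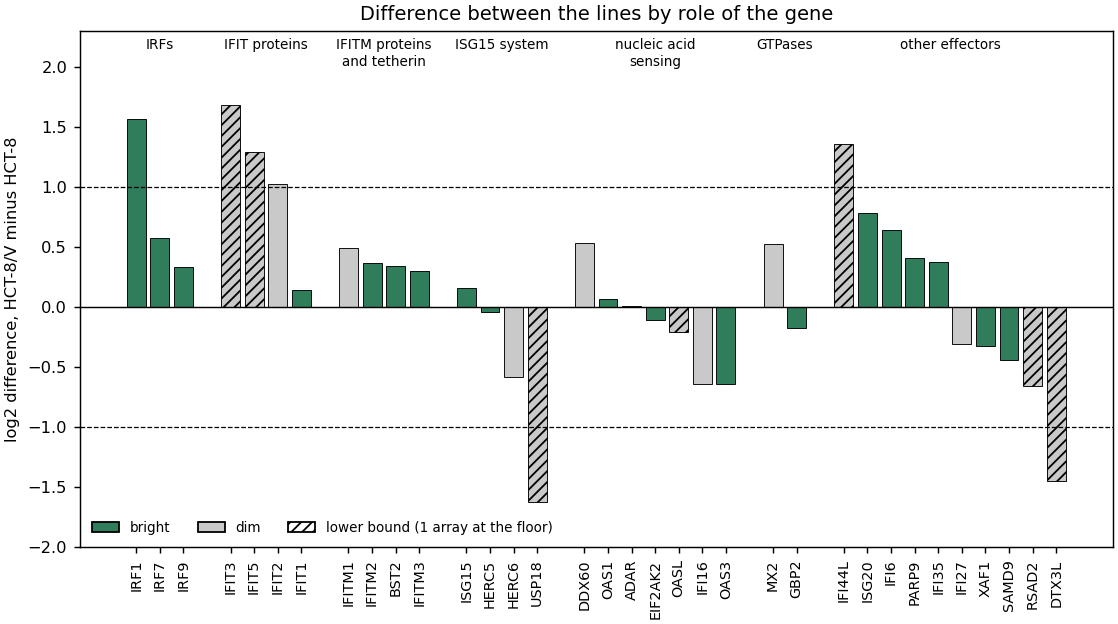
Log2 difference (HCT-8/V minus HCT-8) of the 34 expressed members, grouped by role; green bars are bright genes, grey bars dim genes, hatched bars lower bounds, and dashed lines mark 2-fold. IRF1 is the only green bar past a dashed line, and the IRF, IFIT and IFITM groups lie wholly above 0, IRF7 on its brightest probe.

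Genes that sense or act on viral nucleic acid showed no common direction, with 3 of 7 expressed members higher. OAS3, one of the synthetases whose oligoadenylates activate RNase L, had the largest downward difference among bright members, at 414 in parental and 265 in resistant cells (1.56-fold lower, log2 -0.64). Its neighbour OAS1 read 223 and 233 on its brightest probe, and its 3 probes above the floor all lay within 1.05-fold, the third of them lower in HCT-8/V (158 and 154). OAS2, the third gene of that cluster on chromosome 12, was under the floor in both lines on all 4 of its probes. OASL, a related protein without synthetase activity, was dim at 14.4 and 6.83.

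EIF2AK2, the kinase PKR that stops translation on binding double-stranded RNA, read 589 in parental and 546 in resistant cells (log2 -0.11). ADAR, which edits adenosine to inosine in double-stranded RNA, read 659 and 664 on its brightest probe, and its log2 difference of 0.01 turned to -0.02 on centring all genes or -0.02 on removing a trend with brightness. A second ADAR probe read 397 and 282, or 1.41-fold lower. Which ADAR isoform each probe measures was not tested. The DNA sensor IFI16 (30.8 and 19.8) and the helicase DDX60 (13.4 and 19.5) were both dim and went in opposite directions.

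Of the interferon-induced GTPases, which assemble on viral or microbial structures, only GBP2 was bright, and it was slightly lower in HCT-8/V. GBP2 read 553 in parental and 491 in resistant cells (log2 -0.17). MX2 was dim at 14.1 and 20.3, and MX1 and GBP1 were under the floor in both lines.

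Among the other effectors, 5 expressed members were higher and 5 lower. ISG20, an exonuclease that degrades viral RNA, read 64.7 in parental and 112 in resistant cells, a 1.72-fold difference on its only probe that took it past the 75th percentile in HCT-8/V alone. IFI6, an endoplasmic reticulum protein with antiviral and anti-apoptotic roles, read 413 and 644, or 1.56-fold higher. A second IFI6 probe read 140 and 189, or 1.35-fold higher. Of the bright members with a second probe above the floor, IFI6 and PARP9 were the only ones whose probes were each over 1.3-fold higher in HCT-8/V.

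IFI35, a leucine zipper protein, read 285 in parental and 370 in resistant cells (1.30-fold). SAMD9, a restriction factor for poxviruses, read 283 and 208, or 1.36-fold lower. XAF1, an antagonist of the caspase inhibitor XIAP, read 127 and 102 on its brightest probe but 62.4 and 96.8 on the other. The mean over both XAF1 probes was a log2 difference of 0.15, so its direction depends on the probe. IFI44L was under the floor in parental cells and read 31.9 in resistant cells, at least 2.57-fold higher, while its other probe was below 0 in both lines. IFI27, a mitochondrial protein, was dim at 67.4 and 54.5, and RSAD2, encoding the antiviral enzyme viperin, was dim at 19.6 and -2.95.

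PARP9 and DTX3L encode the subunits of 1 complex, an ADP-ribosyltransferase with a ubiquitin ligase, and they are transcribed away from each other on chromosome 3. A RefSeq start of PARP9 lies 38 bases from that of DTX3L, and the 250 bases before this PARP9 start held 1 ISRE-type match. PARP9 read 67.3 in parental and 89.2 in resistant cells on its brightest probe, and 41.9 and 69.9 on the other, so both were higher (1.32-fold and 1.67-fold). DTX3L read 33.9 and 4.83, at least 2.73-fold lower on 1 dim probe. The genes of this divergent pair thus went in opposite directions on these arrays. Over the 8 pairs of neighbouring members that were both expressed, 6 went the same way and 2 opposite ways, the other being OAS1 and OAS3. The 6 came from the IFIT, IFITM and HERC genes. Pairs within the IFIT and within the IFITM genes share members, so they are not separate observations, and HERC5 was nearly equal in both lines. The share for neighbouring pairs of all genes was not computed, so this count says nothing about the members as a group.

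**Figure D3:**
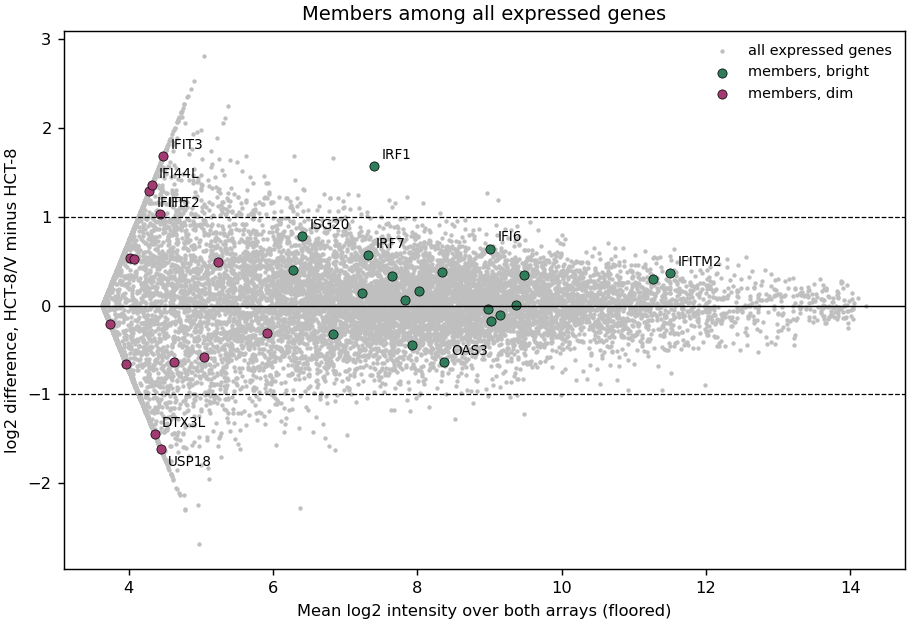
Log2 difference (HCT-8/V minus HCT-8) against mean log2 intensity over both arrays for all 13763 expressed genes (grey) and the 34 expressed members (green bright, purple dim); dashed lines mark 2-fold. The dim members past 2-fold lie in the wide fan of dim genes at the left, where 16.9% of genes pass 2-fold, and IRF1 lies above nearly all genes of its brightness.

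How far single differences can be read was measured on the arrays themselves. For 13272 probes with a mean intensity below 0, which lie near background, the difference between the arrays had an SD of 10.7 units, and 95% of these differences were within 21.4 units. Of the 14 dim members, 6 differed by more than 21.4 units. IFIT3, IFIT5 and IFI44L did so upward, and USP18, DTX3L and RSAD2 downward, while IFIT2 did not. Each of the 6 was above the floor in 1 line only, so it counted as dim through the line where it was high. The limit of 21.4 units came from probes near background, not from dim genes. The share of all dim genes past it was not computed, so the count of 6 says nothing about the members as a group. The agreement of the 2 brightest probes of 1 gene was a second measure. Each had to be above the floor on at least 1 array, so the second probe of a bright gene can itself be dim. Over all bright genes with 2 probes above the floor, both went the same way in 55.8% of 2885, and in 65.7% of the 35 whose brightest probe passed 2-fold. For dim genes past 2-fold it was 44.8% of 163.

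Of the members, 29 had 1 probe and 13 had several. Among the 7 with at least 2 probes above the floor, the 2 brightest went the same way in 4 (IFI6, PARP9, IFIT3 and OAS1) and opposite ways in 3 (IRF7, XAF1 and ADAR), a share close to that of all genes (54.9%). IRF1, IRF9, ISG20, BST2, the IFITM genes, IFIT2, IFIT5, USP18 and DTX3L had 1 probe each, so no second probe could be set beside them.

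**Figure D4:**
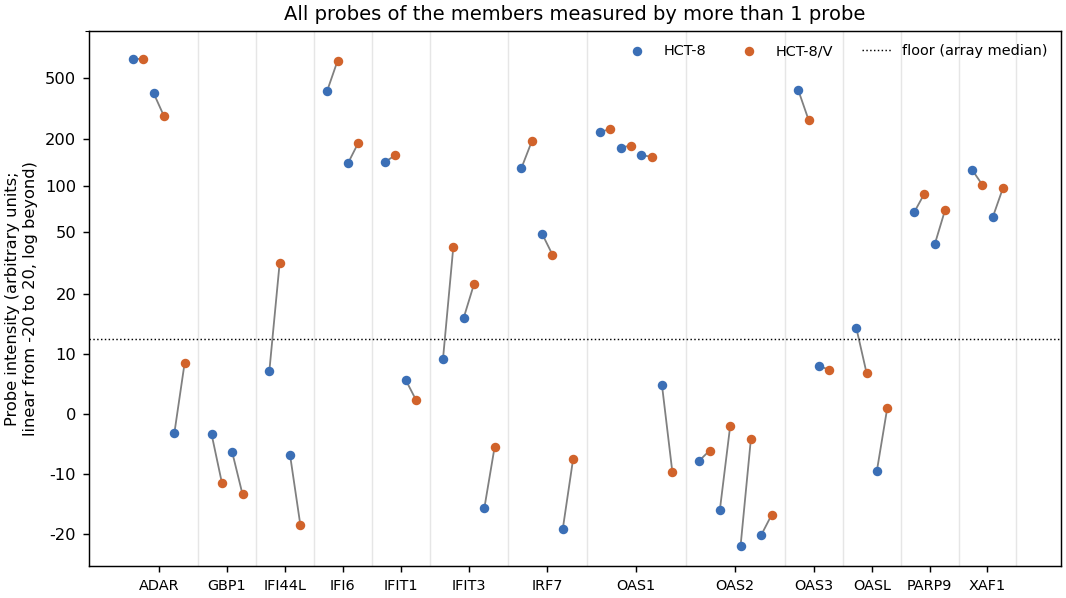
Intensity of every probe of the 13 members with several probes, ordered by brightness within a gene, with HCT-8 (blue) joined to HCT-8/V (orange); the axis is linear between -20 and 20 and logarithmic beyond, and the dotted line is the floor. Both probes of IFI6 and of PARP9 slope upward, while those of XAF1 cross.

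The genes upstream of these effectors were measured on the same arrays. Of 21 interferon genes, none was bright. IFNB1 and IFNG, the genes of interferon beta and gamma, were below 0 in both lines, and the brightest reading was 30.7, for IFNA2 in HCT-8. IFNA21 was at least 2.35-fold higher in HCT-8/V, at 3.72 and 29.3. Transcripts of the alpha interferons are near-identical, so these dim values are uncertain. The receptor genes were expressed, with 5 of 6 higher in HCT-8/V (52.8% of all expressed genes were) and none past 2-fold. IFNGR1, a subunit of the interferon gamma receptor, read 343 in parental and 446 in resistant cells. Its partner IFNGR2 read 1224 and 1359. The type I receptor subunits were also slightly higher, IFNAR1 at 69.2 and 89.0 and IFNAR2 at 292 and 321. IL10RB, shared with the type III receptor, read 841 and 1045 on its brightest probe but 260 and 219 on the other. IFNLR1, the specific subunit of that receptor, was dim at 42.2 and 40.1, and its second probe read 21.7 and 2.52.

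Among the receptor-bound kinases, JAK1 and JAK2 were past 2-fold downward and TYK2 was not lower. JAK1, needed by all interferon receptors, read 362 in parental and 176 in resistant cells, 2.05-fold lower. JAK2, needed for interferon gamma, read 97.6 and 45.1, or 2.16-fold lower. It was bright in HCT-8 alone, so it entered that class through the line where it was high. JAK1 and JAK2 rest on 1 probe each, and 0.737% of all bright genes were at least 2-fold lower. TYK2, the kinase bound to the type I receptor, read 298 and 345. Of 8 JAK and STAT genes analysed, 3 were higher and 5 lower, where 52.8% of all expressed genes were higher. STAT3 was lower on all 3 of its probes, at 1221 and 1108 on the brightest. STAT5A read 854 and 622, and its close paralog STAT5B 302 and 260. STAT6, the factor of interleukin signalling in allergic responses, read 90.3 and 112, and STAT4 was dim at 30.7 and 37.9. Of the other IRFs, IRF3, the factor that first induces interferon genes, was nearly equal at 209 and 222. IRF5 and IRF2 were dim, the first higher and the second lower, and IRF4 and IRF8 were under the floor. Of 10 expressed negative regulators, 1 read higher in HCT-8/V and 9 lower, where 52.8% of all expressed genes read higher. Most of these differences were small: PTPN1, PTPN11, TRIM21 and PIAS3 were within 1.07-fold, and the median over the 7 bright ones was -0.04. PIAS1, an inhibitor of STAT binding, was the one that read higher, at 325 and 379. The feedback inhibitor SOCS3 read 83.3 and 55.3 (1.51-fold lower), and SOCS1 was dim and 1.90-fold lower. CISH, a related STAT5 inhibitor, was the only one past 2-fold, at 32.8 and 14.9. Both dim differences, SOCS1 and CISH, were within the 21.4 units given above for probes near background.

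Sensors and adaptors were higher in 8 of 12 expressed genes, against 52.8% of all expressed genes, and none passed 2-fold. TICAM1, the adaptor of the receptor for double-stranded RNA, read 419 in parental and 728 in resistant cells (1.73-fold) on its brightest probe, but 157 and 97.2 on the other, so its direction depends on the probe. Genes typical of interferon gamma had no direction that held across probes. On the brightest probes 7 of 9 bright ones were higher (53.5% of all bright genes were), with a median log2 difference of 0.38, but averaged over each gene's probes, a setting chosen after seeing the data, 4 were higher and 5 lower, with a median of -0.0037. HLA-DRA, a class II antigen-presenting chain, read 50.8 and 81.7 on its brightest probe but 48.6 and -0.366 on the other. The tryptophanyl-tRNA synthetase WARS1 read 736 and 1119 and was higher on its second probe too (471 and 602). The immunoproteasome genes PSMB8 (759 and 960) and PSMB9 (93.0 and 127) were higher on the brightest probe, but 2 of 4 probes of PSMB8 and the second probe of PSMB9 were lower. A broader list of further interferon-induced genes did not share the direction of the members. Of 18 bright genes in it, 7 were higher and 11 lower, with a median of -0.12. RNF213, a large ubiquitin ligase, was higher on both probes, at 269 and 447 on the brighter. The restriction factor TRIM5 was lower on all 3 probes, at 312 and 206 on the brightest. ZC3HAV1, which binds viral RNA rich in CpG, read 176 and 119 and was lower on 2 of 3 probes. SLFN12, at least 2.99-fold lower at 37.2 and 7.79, was the only gene of that list past 2-fold, and it was dim.

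**Figure D5:**
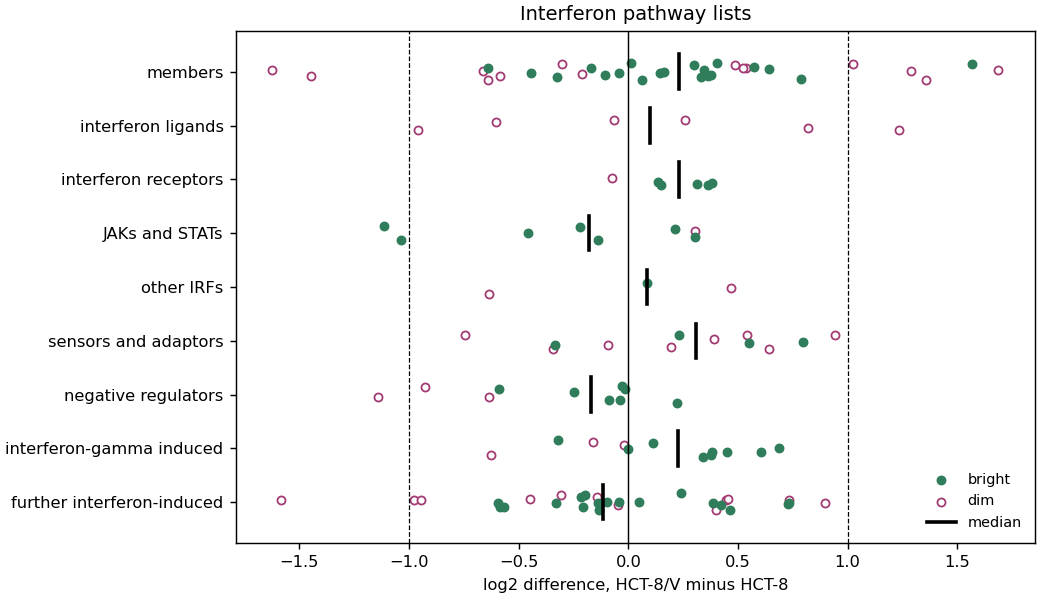
Log2 difference (HCT-8/V minus HCT-8) of each expressed gene in the members and in 8 related lists; filled green points are bright genes, open purple points dim genes, black bars medians, and dashed lines 2-fold. The median is 0.23 for the members and -0.12 for the further interferon-induced genes. JAK1 and JAK2, the latter bright in HCT-8 alone, are the filled points left of -1.

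Promoter sequence was then set beside the differences. RefSeq promoters were found for 33 of the 42 members. An ISRE-type match lay within 250 bases before a start in 21 of the 33 (63.6%), against 3.71% of 27305 genes, and a GAS-type match in 9 (27.3%), against 8.09%. Members with an ISRE-type match read higher in HCT-8/V in 12 of 17 expressed cases, against 50.9% of all 373 expressed genes with one. Members without one did so in 5 of 10, against 53.0% of 10442. IFIT3, IFIT5 and IFI44L, among the 12, counted as expressed through HCT-8/V alone. RSAD2 with a match and DTX3L without one, both lower, counted through HCT-8 alone. These counts thus depend on that filter. Among bright members alone, 7 of 10 with a match and 5 of 7 without were higher. Of all bright genes it was 50.2% of 213 with a match and 53.5% of 6421 without. Genes with matches went both ways, as the stretches printed above show: IFI6 with 3 ISRE-type matches was 1.56-fold higher, OAS3 with 2 was 1.56-fold lower, and IFIT1 and ISG15 with 2 each were within 1.12-fold. Of the 8 expressed members with a GAS-type match, 7 read higher, where 50.5% of all 835 expressed genes with such a match did. Over all expressed members, with or without a match, 21 of 34 read higher. Members without a GAS-type match were not counted apart, so the 7 of 8 cannot be tied to the match. The bright ones were IRF1, IRF9, IFI35, BST2 and OAS1, from 1.05-fold for OAS1 to 2.97-fold for IRF1, and the one that read lower was the dim IFI27.

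Markers of cell types were read on the same arrays as a check of the labels. Of 10 colon epithelium markers, KRT8 (2199 in parental and 2283 in resistant cells), KRT18 (445 and 560) and EPCAM (117 and 80.0) were bright in at least 1 line. KRT19 lay at the floor (12.8 in both), and CDH1, KRT20, VIL1, CDX2, LGALS4 and CEACAM5 were under it in both lines, so intestinal markers of the labelled tissue were not detected. Of 6 fibroblast markers 5 were expressed, 4 of them higher in HCT-8/V. DCN read 625 and 854 on the brightest of its 4 probes, and the others were at most 86.5, the 2 dimmest slightly lower in HCT-8/V. PDGFRB read 149 and 218 and COL1A1 53.6 and 87.7, while COL3A1 was lower at 73.1 and 55.0. LUM was near the floor, and COL1A2 was under it on its brighter probe. The summed intensity of the 6 fibroblast markers, each by its brightest probe, was 922 in parental and 1242 in resistant cells. Most of this sum was DCN, at 625 and 854. Of 9 leukocyte markers 6 were expressed, 3 higher and 3 lower, all but CD68 dim. CD14 read 35.6 and 42.4, CD3D 21.6 and 12.3 and MS4A1 19.6 and 17.1, and NKG7 and ITGAM were near the floor. The pan-leukocyte marker PTPRC and CD3E were under the floor on every probe, and LYZ on its brightest. On their brightest probes, all 5 markers of plasmacytoid dendritic cells, the main producers of interferon alpha, were under it too, and the second probe of CLEC4C read 13.6 in HCT-8/V. The macrophage marker CD68, a lysosomal protein that other cells also make, read 844 and 1153. Of 4 endothelial markers, CDH5 and KDR were below 0 in both lines, PECAM1 was dim at 34.2 and 14.5, a difference within the 21.4 units of probes near background, and VWF was near the floor. The part of these marker differences in the results above was not tested. The identity of the cultures was not checked against a reference profile.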

How the data were processed

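Probe intensities were used as deposited, without detection p-values. Their background correction and scaling are not given in the sources used here. Judged by their distribution, they were already background-subtracted (29.2% of probes below 0 in HCT-8) and matched in distribution, so a shift of most genes would not be visible. Probes were named by the platform annotation (30113 with 1 symbol, 8 with several, 17202 with none), and 30074 matched the RefSeq gene table through the Entrez ID. Python 3.11.15 with pandas 2.3.3 and statsmodels 0.14.6 computed log2 differences as described in the text. The 2-fold call was tested on simulated data, only for bright genes with changes set larger than 2-fold. Changes in dim genes, the promoter step and the alternative settings were not tested in this way. The number of arrays limits the precision. The members and lists were chosen with earlier results of these data known. Every bright member, every member past 2-fold and the IRFs are given in full by rule, as are receptors, JAKs, STATs and genes past 2-fold of related lists. Further list genes and the printed promoters were chosen after their values were seen. No promoter was found for 9 members.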

Additional observations from a re-analysis of the deposited data

How the results depend on the processing

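The median log2 difference of expressed members was positive under all 7 alternative settings, and that of bright members under all 8. It ranged from 0.14 with no floor to 0.44 with second brightest probes (7 members) against 0.23, and for bright members from 0.15 to 0.24. With second brightest probes, 5 of 7 expressed members were higher and 2 lower, 3 of 4 bright ones higher and 1 lower, and 0 passed 2-fold. The counts past 2-fold also moved with the floor. Instead of 7 members (5 higher, 2 lower), 1 passed, higher, and 0 lower, both with the floor at the 75th percentile and with no floor, in each case IRF1. At the 75th percentile only 20 members were expressed and 6 were lower. With the mean over all probes 3 were past 2-fold higher. A threshold of 1.5-fold gave 13 members (6 lower) and of 3-fold gave 2 (1 higher and 1 lower). The shares of all expressed genes under these settings are not given here, so these counts say nothing about the members as a group. Median centring, quantile normalization and removal of a loess trend (span 0.3) kept the direction of every expressed member, except ADAR with the first and the last. For the related lists, averaging over each gene's probes was chosen after seeing the data: the median of bright interferon-gamma-induced genes turned from 0.38 to -0.0037 (4 of 9 higher in place of 7), and those of receptors, sensors and leukocyte markers shrank to 0.15, 0.14 and 0.21. No paired analysis was possible because each line had 1 array, and for the same reason no array could be left out. Dim values near the floor limit what can be read.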

Other observations

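Outside the 42 members, genes with an ISRE-type match in their promoter did not read higher as a group. Of 356 such expressed genes 178 were higher in HCT-8/V, with a median log2 difference of 0.00, against 53.0% and 0.03 for 10432 non-members without a match. Among bright non-members with a match, 100 of 203 were higher, against 53.5% of 6414 without one. Of the 203, 2 (0.985%) passed 2-fold upward and 0 downward, against 0.857% and 0.717% without a match. Dim non-members with a match passed 2-fold more often upward: 20 of 153 (13.1%) were higher and 13 (8.50%) lower. Without a match, 8.93% of 4018 dim ones were that much higher and 8.01% that much lower. How many of these were above the floor on 1 array only was not counted, so no direction can be read from them. Over all dim genes past 2-fold with 2 probes above the floor, the probes went the same way in 44.8% of 163. Of 18 expressed non-members with at least 2 matches in 1 promoter, 11 were higher, with a median of 0.11. Non-members with a GAS-type match were higher in 50.2% of 827.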
